A study of Mus musculus with 14 samples.

Results

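The regions described here are 1520 stretches of mouse heart chromatin that lie away from promoters and CpG islands and carried more histone H3 lysine 9 acetylation (H3K9ac) than lysine 9 butyrylation (H3K9Bu) on a diet with 0% fat. They were taken from a table of 49314 merged regions, of which 26429 were distal, meaning shorter than 4000 bp with no promoter and no CpG island assigned by the authors. A distal region entered the set when its average H3K9ac signal, taken as the mean of the sham and the TAC library, was 20 or more and was at least 1.5 times the mean H3K9Bu signal of the matching 2 libraries. The average signal is the authors' mean tag density over the region. The 4 libraries at 0% fat therefore chose the members, and their levels are given below as a description with no test. The members made up 5.75% of the distal regions, whereas 56.2% of the regions with a promoter met the same signal and ratio limits.

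The study used hearts of 12-week-old male C57Bl/6J mice that ate a diet with 0, 10 or 60% of calories from fat for 4 days before surgery and for 1 week after it. The mice had either sham surgery or a transverse aortic constriction (TAC), in which a ligature narrows the aortic arch and the left ventricle must pump against higher pressure. Sonicated chromatin of heart nuclei was pulled down for either H3K9ac or H3K9Bu, which gave 12 libraries, 1 for each mark, surgery and diet, each labelled as a pool of 3. The 2 pooled input libraries were not used. With 1 library in each group there was no spread between replicates, so no comparison below carries a test, and each difference compares libraries.

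Acetylation of H3K9 is laid down by histone acetyltransferases and is found at active promoters and enhancers. Butyrylation places a longer acyl group on the same lysine, draws on butyryl-CoA, an intermediate of fatty acid breakdown, and competes with acetylation for the residue. Enhancers and alternative promoters inside genes are where cell type programmes and responses to load are commonly read out in the heart.

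The deposited tables came in 3 separately normalised sets, so levels were compared only within a table: 49314 regions at 0% fat for both marks, 38150 regions at 10 and 60% fat for H3K9ac, and 58137 regions at 10 and 60% fat for H3K9Bu. The estimated number of tags in regions ran from 2543841 to 9163220 per library. Some libraries stood apart. The sham H3K9ac library at 0% fat had 7007 called regions found in no other library of its table, against 2542 in the TAC H3K9ac library, and the sham H3K9Bu library at 10% fat had 21352 such regions of 41348 called. It also had the lowest median ratio of peak to average signal of the 6 H3K9ac libraries, 1.36 against 1.43 to 1.48, and the part of this in the results was not tested. Promoter regions of 7 of 7 ventricular cardiomyocyte genes carried H3K9ac, at 53.7 to 106 in the sham library at 0% fat, and those of 2 of 7 genes of other tissues did, at 5.42 and 35.1. Promoter regions were also present for 5 of 5 fibroblast genes at 27.3 to 38.9, 5 of 5 endothelial genes at 46.5 to 79.7 and 4 of 5 macrophage genes at 8.38 to 105.

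Of the 1520 members, 579 were called in both H3K9ac libraries at 0% fat, 763 only in the sham library and 178 only in the TAC library. Of the 763, 735 had a call in the sham H3K9ac library and in none of the other 3 libraries. Taken apart, 1190 members met both limits in the sham libraries, 668 in the TAC libraries, 350 in each and 12 in neither. Because so many members rested on the sham library that stood apart, results are given for all members and for the 579 called in both or the 350 that met the limits in each surgery.

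A group of 103 members held a RefSeq transcription start, although the authors' annotation gave them no promoter. RefSeq starts were available for 1480 members, so the share was 6.96%, against 3.13% of 9031 other distal regions with an H3K9ac signal of 20 or more and 1.93% of 25378 distal regions. The share was 15.1% of the members called in both libraries (85 of 563), 1.2% of those called in sham only (9 of 747) and 5.29% of those called in TAC only (9 of 170). Of the 103, 72 held a start of the gene the authors had assigned, that is, an internal or alternative start, and 25 held only predicted symbols. With the marks exchanged in the rule, 0.830% of 10115 regions held a start.

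Longer regions held starts more often, and members called in both libraries were long, with a median of 980 bp against 562 bp for the other distal regions of the same signal. Among regions of 1000 bp and more, a start lay in 22.9% of the members called in both (63 of 275). The share was 6.82% (142 of 2081) for other distal regions at the same signal limit and 3.25% (25 of 770) for the exchanged rule. For members called in sham only, it was 3.85% (3 of 78).

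**Figure D1:**
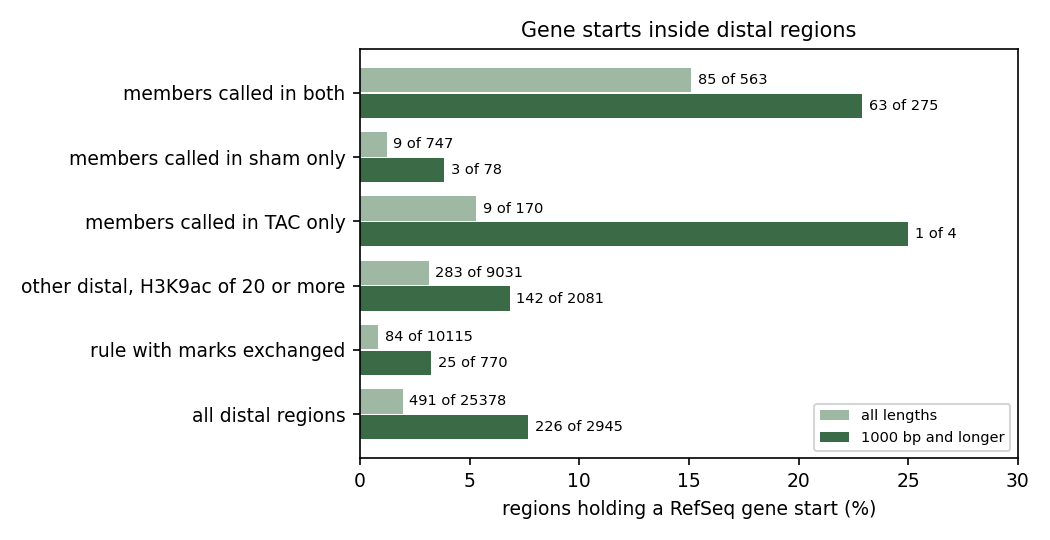
Percent of distal regions that hold a RefSeq gene start, for members by their H3K9ac call at 0% fat and for other distal regions; pale bars are all lengths, dark bars regions of 1000 bp and more. Members called in both libraries reach 15.1% and 22.9%, and the 4 long members called in TAC only are too few to read.

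The bases just upstream of 4 such internal starts are shown, chosen after their values were seen, because the results at Rcan1, Adar, Pfkm and Sgms1 below turn on regions that hold a start. Each run gives the 250 bases before the start, from RefSeq on GRCm38.p6, whose primary coordinates equal those of mm10, 5′ to 3′ on the strand of the gene. Capitals mark the matches named after each set, and other matches are left in lower case and given in the text. The Rcan1 window is chr16:92400079-92400328 on the minus strand, the Adar window chr3:89730468-89730717 on the plus strand, the Pfkm window chr15:98108221-98108470 on the plus strand and the Sgms1 window chr19:32211014-32211263 on the minus strand.
Rcan1: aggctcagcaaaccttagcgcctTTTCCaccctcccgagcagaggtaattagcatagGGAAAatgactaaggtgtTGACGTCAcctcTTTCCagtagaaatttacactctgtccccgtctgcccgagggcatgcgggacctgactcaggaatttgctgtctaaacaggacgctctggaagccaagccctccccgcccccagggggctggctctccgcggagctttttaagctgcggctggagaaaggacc
Adar: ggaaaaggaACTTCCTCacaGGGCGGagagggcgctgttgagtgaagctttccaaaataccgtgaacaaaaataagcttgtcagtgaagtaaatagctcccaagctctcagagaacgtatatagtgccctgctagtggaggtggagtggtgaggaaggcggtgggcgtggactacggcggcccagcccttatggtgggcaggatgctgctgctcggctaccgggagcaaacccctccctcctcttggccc
Pfkm: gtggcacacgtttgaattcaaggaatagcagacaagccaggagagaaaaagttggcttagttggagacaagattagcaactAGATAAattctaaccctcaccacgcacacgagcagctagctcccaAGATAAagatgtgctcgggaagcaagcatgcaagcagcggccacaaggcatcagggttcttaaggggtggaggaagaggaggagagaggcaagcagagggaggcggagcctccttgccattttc
Sgms1: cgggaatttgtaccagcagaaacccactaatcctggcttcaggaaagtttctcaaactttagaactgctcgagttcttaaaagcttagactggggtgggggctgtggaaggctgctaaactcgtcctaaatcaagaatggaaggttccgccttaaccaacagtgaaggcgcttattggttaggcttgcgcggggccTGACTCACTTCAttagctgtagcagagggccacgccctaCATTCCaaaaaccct
In the Rcan1 window the capitals are 3 NFAT cores (GGAAA) and 1 cyclic AMP response element (TGACGTCA), and in the Adar window a PU.1 match (GAGGAAGT) and an SP/KLF match (GGGCGG). The Pfkm window holds 2 GATA matches (AGATAA). The Sgms1 window holds an AP-1 match (TGANTCA) that overlaps an NKX2-5 match (TNAAGTG), and a TEAD match (CATTCC). Left in lower case are further matches of the searched motifs. In the Rcan1 window they are AP-1, SP/KLF and the shortened glucocorticoid receptor palindrome, each once. The NFAT core also occurs 2 times in the Adar window and once each in the Sgms1, Lima1, Rassf5 and Nfix windows. All motifs were searched on both strands, and a match is a string of letters, not a bound site.

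A further 3 windows are shown for a start without any CpG, for a start whose region was high after TAC, and for a start inside a member called in the sham library only. They are Lima1 at chr15:99820150-99820399, Rassf5 at chr1:131200186-131200435 and Nfix at chr8:84780083-84780332, all on the minus strand. The last 46 bases of the Rassf5 window by coordinate lie beyond the end of its region.
Lima1: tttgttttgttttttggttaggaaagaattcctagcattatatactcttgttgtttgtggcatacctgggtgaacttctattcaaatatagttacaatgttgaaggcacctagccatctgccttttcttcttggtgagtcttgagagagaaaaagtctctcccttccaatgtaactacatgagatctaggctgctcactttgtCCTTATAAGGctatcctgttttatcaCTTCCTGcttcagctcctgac
Rassf5: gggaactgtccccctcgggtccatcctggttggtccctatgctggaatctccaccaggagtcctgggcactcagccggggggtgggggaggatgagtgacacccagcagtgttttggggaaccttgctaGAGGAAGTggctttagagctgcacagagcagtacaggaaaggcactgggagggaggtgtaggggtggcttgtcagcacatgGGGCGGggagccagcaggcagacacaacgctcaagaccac
Nfix: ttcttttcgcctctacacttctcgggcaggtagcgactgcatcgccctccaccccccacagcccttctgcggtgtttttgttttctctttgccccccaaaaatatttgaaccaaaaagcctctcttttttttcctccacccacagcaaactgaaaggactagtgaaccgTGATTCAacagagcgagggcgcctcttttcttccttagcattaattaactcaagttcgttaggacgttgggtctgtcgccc
The capitals in the Lima1 window are a CArG box, the motif of serum response factor, and an ETS match (CAGGAAG), and the window had 0 CpG pairs and 39.2% G and C. In the Rassf5 window they are a PU.1 match and an SP/KLF match, and in the Nfix window an AP-1 match.

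Across the 117 starts inside members, the windows had a median of 54.0% G and C and 7 CpG pairs. The medians were 51.2% and 4 CpG for 426 starts in other distal regions, 61.2% and 17 CpG for 11154 starts in regions outside the distal class, and 52.4% and 6 CpG for all 32817 RefSeq windows. An SP/KLF match was in 33.3% of the member windows, 12.7% of those in other distal regions and 32.7% of all windows. The E-box CAGCTG was in 23.1% of member windows, 19.7% of those in other distal regions and 13% of all windows. The ETS letters CAGGAAG were in 14.5, 16.7 and 10.8%. GATA matches were in 8.55% of member windows, 9.15% of those in other distal regions and 9.99% of all windows. The shares were 8.55, 16 and 12.6% for TEAD and 10.3, 12.4 and 10.1% for NKX2-5. The NFAT core, a motif added after these members were seen, was in 59.0% of member windows, 62.4% of those in other distal regions and 55.6% of all windows, so the 3 copies at Rcan1 use a string that is common. The full letters of the glucocorticoid receptor, CTCF, DR1 and NFI motifs were in none of the member windows. They were rare elsewhere too, in 0.387, 2.07, 0.0335 and 0.0366% of all windows. In other distal regions the shares were 0.704, 2.11, 0 and 0%.

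Rcan1 encodes an inhibitor of calcineurin, and its internal start is known to be switched on by calcineurin and NFAT in the loaded heart. The member that holds this start, chr16:92398583-92400864 (mm10), had an H3K9ac signal of 46.4 in sham and 78.9 after TAC at 0% fat. The H3K9Bu signal there was 36.1 in sham and 41.7 after TAC. In the H3K9ac table of the other diets the overlapping region had 48.7 in sham and 50.3 after TAC at 10% fat, and 42.7 and 66.8 at 60% fat. A matched region of another table can be longer than the member it overlaps. H3K9ac was thus higher after TAC at 0 and 60% fat and nearly level at 10% fat.

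Ratios of TAC to sham were computed on the log2 scale after adding 1 to each signal and were centred, so that the median of all regions in the table is 0. Their 95% intervals were taken from the estimated tags (1 tag for each 224 bp of signal, exact binomial) and cover counting error only, not differences between hearts. At Rcan1 the centred log2 ratio was 0.68 at 0% fat (0.53 to 0.86), 0.02 at 10% fat (-0.16 to 0.21) and 0.50 at 60% fat (0.34 to 0.69). A second Rcan1 member, 802 bp long and just beside the first, had 21.2 in sham and 24.5 after TAC, with a ratio of 0.13 whose interval reached from -0.32 to 0.60. In whole tissue, a change in the share of a cell type and a change of the mark within a cell type cannot be told apart.

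Adar encodes an adenosine deaminase that edits double-stranded RNA. Its member on chromosome 3 had H3K9ac of 56.7 in sham and 91.8 after TAC at 0% fat, 65.3 and 77.5 at 10% fat, and 57.5 and 85.2 at 60% fat. H3K9Bu was 46 and 46.8 at 0% fat. The TAC library was the higher of the pair at each diet for H3K9ac, with ratios of 0.61 (0.43 to 0.81), 0.22 (0.05 to 0.40) and 0.43 (0.25 to 0.62), and only the first was past the 1.5-fold limit used for counts. Lima1, which encodes an actin-binding protein, had 58.1 and 79.2 at 0% fat, 60.1 and 65.7 at 10% fat and 56.0 and 76.3 at 60% fat. Its ratios were 0.37 (0.23 to 0.52), 0.10 (-0.04 to 0.25) and 0.31 (0.17 to 0.46), so 10% fat had the smallest ratio, as at Rcan1.

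Pfkm encodes the muscle form of phosphofructokinase, a control point of glycolysis. Its member with an internal start had H3K9ac of 61.3 in sham and 82.5 after TAC at 0% fat, 62.4 and 66.3 at 10% fat, and 70.0 and 62.8 at 60% fat. The direction thus differed between diets, with ratios of 0.35 (0.16 to 0.55), 0.06 (-0.12 to 0.25) and -0.29 (-0.47 to -0.11). Sgms1, which encodes a sphingomyelin synthase, was among the highest members and nearly level, at 86.5 and 98.0 at 0% fat, 92.3 and 94.0 at 10% fat and 87.1 and 94.8 at 60% fat. All of its ratio intervals held 0.

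Rassf5 encodes a Ras-binding protein that acts in lymphocyte adhesion. Its member had the lowest sham level of these starts, 12.5, against 38.5 after TAC at 0% fat, and H3K9Bu of 10.1 and 16.6. At 10% fat the H3K9ac values were 29.2 and 30.4, and at 60% fat 18 and 33.4. The ratios were 1.47 (1.2 to 1.89), 0.03 (-0.27 to 0.33) and 0.72 (0.42 to 1.09). Kcnh2, which encodes a potassium channel of cardiac repolarisation, went the other way at 0 and 60% fat in its internal-start member, with 38.7 in sham and 23.4 after TAC, 21.0 and 22.8 at 10% fat, and 29.5 and 17.6 at 60% fat. Its ratios were -0.78 (-1.07 to -0.52), 0.10 (-0.25 to 0.45) and -0.84 (-1.22 to -0.53). Kcnh2 was picked out after its values were seen.

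Over all 103 members with a start, the median H3K9ac signal at 0% fat was 39.3, the median H3K9Bu signal 22.6 and the median length 1398 bp. Of the 103, 95 overlapped a called interval in all 4 H3K9ac libraries at 10 and 60% fat. At 0% fat, H3K9ac was 1.5-fold or more higher after TAC in 18 and lower in 10, where 13.6% and 23.5% of all 49314 regions were. At 10% fat none of the 102 with a match was past the limit, where 4.24% of all regions were higher and 6.98% lower. At 60% fat 2 were higher and 7 lower, where 8.18% and 13.2% of all regions were. The median ratios were 0.11, 0.03 and -0.03, close to the centre of the tables.

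**Figure D2:**
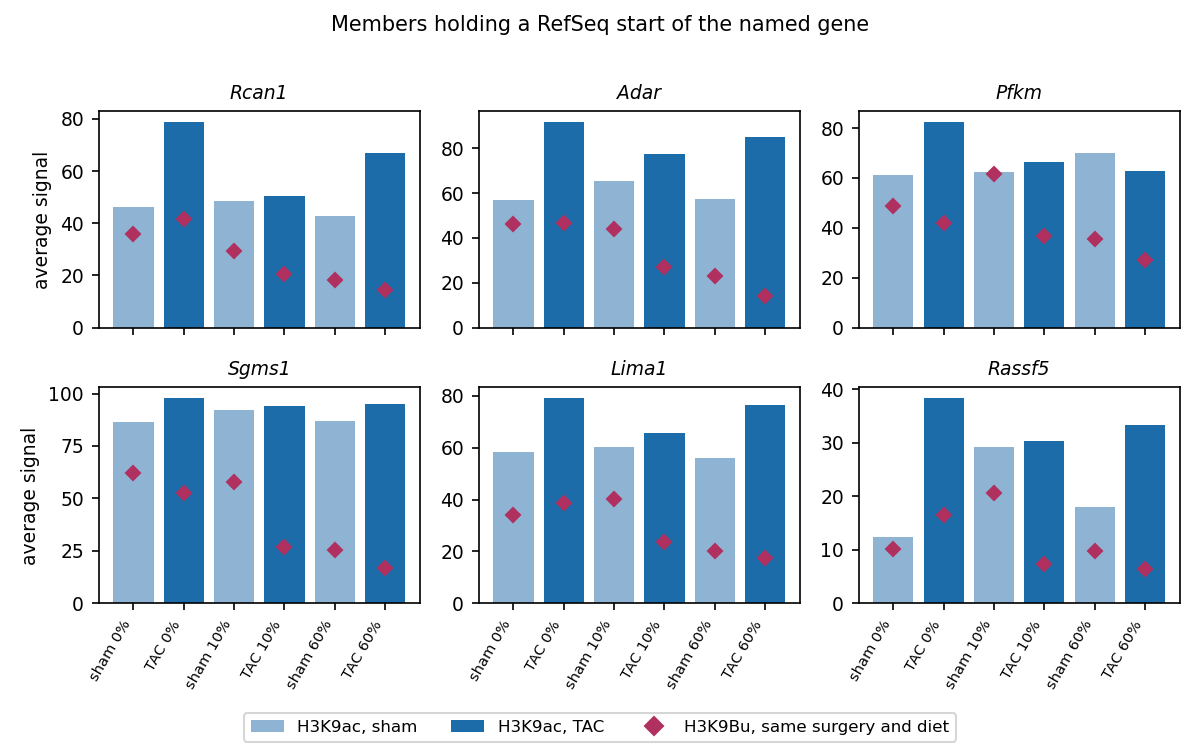
H3K9ac average signal (bars) and H3K9Bu average signal (diamonds) in each of 6 surgery and diet groups, 1 library each, for 6 members that hold a RefSeq start of the named gene. Signals of the diets at 10 and 60% fat come from a separate table for each mark, so only bars, or only diamonds, of those diets are to be compared. Rcan1, Adar, Lima1, Rassf5 and Sgms1 have taller TAC than sham bars at each diet, and Pfkm at 0 and 10% fat. Some of the gaps at 10% fat are small.

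Over the whole set, the median average signal of H3K9ac was 31.3 in the sham library and 20.9 in the TAC library at 0% fat, and that of H3K9Bu was 14.9 and 14.3. The median ratio of mean H3K9ac to mean H3K9Bu was 1.75, with 366 members at 2-fold or more, 15 at 3-fold or more and a highest value of 4.09. The members were short, with a median of 535.5 bp between 210 and 3982 bp. The values just on either side of the limits were close. Just inside the ratio limit were regions near Treh (48.3 H3K9ac, 32.2 H3K9Bu) and in Sh3bp5 (25.8 and 17.2), and just outside it regions assigned to Meis1 (20.6 and 13.7) and Nfic (34.6 and 23.1). Just inside the signal limit lay a Tfe3 region at 20, and just outside it a Cabp1 region at 19.97.

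**Figure D3:**
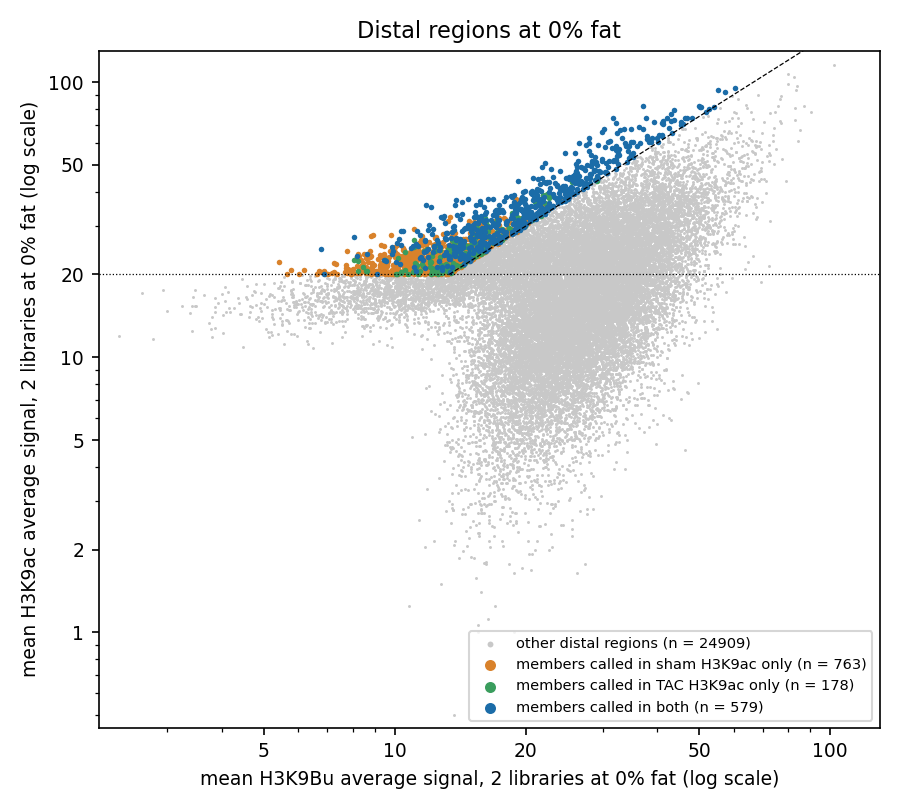
Mean H3K9ac against mean H3K9Bu average signal at 0% fat for the 26429 distal regions, both axes on a log scale; coloured points are the 1520 members by the H3K9ac library in which they were called. The dotted line is the signal limit of 20 and the dashed line the ratio limit of 1.5, so the placement of the coloured points is set by the rule; members called in both libraries reach the highest H3K9ac.

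The highest member was in Acacb, which encodes the acetyl-CoA carboxylase that makes malonyl-CoA and so holds back fatty acid entry into mitochondria. Its H3K9ac signal was 87.9 in sham and 103 after TAC at 0% fat, and H3K9Bu was 61.9 and 59.1. At the other diets it was nearly level, with H3K9ac of 88.7 and 88.0 at 10% fat and 87.5 and 86.8 at 60% fat. The next were Wbp1l at 87.9 and 99.4, with a RefSeq start 367 bp from the middle of the region, and Sgms1. A region between Ppm1m and Twf2 had 84.6 and 78.6, and H3K9Bu of only 38.5 and 35.7. These high members were all called in both libraries.

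The largest ratios belonged to members with low H3K9Bu. A region within Nr2f6 had H3K9ac of 35.0 in sham and 9.35 after TAC, and H3K9Bu of 5.52 and 5.30. One within Nr2f2, an orphan nuclear receptor of veins and atria, had 32.7 and 16.9 against 7.54 and 5.96. A member in Pdgfrb, the receptor that marks pericytes and other mural cells, had 32.9 and 21.7 against 8 and 8.07. Of these 3, the Nr2f6 region was called in sham only and had no match at the other diets. Among the 350 members that met the limits in each surgery, Popdc2, a membrane protein of cardiac muscle, stood high, with H3K9ac of 32.1 and 39.6 and H3K9Bu of 12.6 and 11. Its overlapping region at the other diets had H3K9ac of 46.8 and 56.6 at 10% fat and 50.2 and 54.5 at 60% fat. The member had no H3K9Bu call in any of the 4 libraries. The overlapping region ran from 38361709 to 38366466 on chromosome 16, while the member was 474 bp long, so those values cover bases well outside it.

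The authors' annotation placed 80.6% of the members in a gene, against 65.2% of all distal regions, and gave no gene to 11.6%, against 25.9%. The classes differed, with 89.8% in a gene and 4.98% without one for members called in sham only, 74.6% and 16.8% for those called in both, and 60.7% and 23.6% for those called in TAC only. The median distance from the middle of a member to the nearest RefSeq start was 7257 bp. It was 16710 bp for other distal regions at the same signal limit and 24573 bp for regions from the exchanged rule. Within 10000 bp of a start lay 58.2% of the members, 33.5% of the other distal regions and 21.5% of the exchanged set. For the members called in both libraries it was 59.3%, and for the 350 it was 62.1%, each above the other distal regions.

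The members were assigned to 1152 gene symbols, of which 820 had 1 member, 332 had 2 or more and 24 had 5 or more. Within 10000 bp of another member lay 660 of them, or 43.4%. Nfix and Tns1 had 9 each. Nfix encodes a nuclear factor I protein, and 9 of its 44 distal regions were members, 4 called in both libraries and 5 in sham only, with mean H3K9ac between 20.5 and 32.0 and mean H3K9Bu between 9.08 and 19.3. The Nfix member whose start is shown above, chr8:84779820-84780447, had 26.2 in sham and 16.6 after TAC at 0% fat, then 15.1 and 16.8 at 10% fat, and 20.1 and 20 at 60% fat. Tns1, which encodes a protein of focal adhesions, had 9 of 83, of which 8 were called in sham only. Ahdc1 had 8, all called in sham only, and Tenc1 and Spryd3 shared the same 8 regions. Of the members in these genes, those in Nfix had the largest share called in both libraries.

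Genes of the contractile apparatus and of the endothelium held the most members among the 22 lists described. Assigned to 13 of 30 sarcomere and Z-disc genes were 25 members, and 13 of the 25 were called in both libraries. They made up 1.64% of the set, against 0.477% of all distal regions and 0.457% of the other distal regions at the same signal limit. In Lmod2, which encodes an actin filament nucleator, a member had 43.6 and 42.7 at 0% fat, and in Actn2, the Z-disc alpha-actinin, another had 37.6 and 43.0. Pdlim5, a Z-disc adaptor, had 36.7 and 43.9. These 3 were close to level between surgeries at 0% fat. Over the list, the median TAC to sham ratio was -0.41 at 0% fat, -0.05 at 10% and -0.31 at 60% fat. Past the 1.5-fold limit there were 0 higher and 8 lower, 1 and 1, and 0 and 6, with 21 members matched at the other diets. Over all regions the shares higher and lower were 13.6% and 23.5% at 0% fat, and, over the 32968 with a match at the other diets, 2.47% and 4.57% at 10% fat and 6.04% and 9.17% at 60% fat. Of the 25 members, 10 were called in sham only and so were low after TAC at 0% fat by their class.

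Calcium handling and ion channel genes had 19 members on 9 of 30 genes, where 178 of 26429 distal regions were assigned to the list, and 12 when members were given to the nearest RefSeq start. Cacnb2, an accessory subunit of the cardiac calcium channel, had a member called in both libraries with 52.3 in sham and 31.3 after TAC at 0% fat, 71.7 and 35.4 at 10% fat, and 53.6 and 24.8 at 60% fat. The sham library was the higher at each diet, with ratios of -0.80 (-1.07 to -0.56), -1.02 (-1.26 to -0.83) and -1.21 (-1.5 to -0.99). A second Cacnb2 member, of 1037 bp, had 40.5 and 34.5, with ratios of -0.30, -0.21 and -0.42. Across the list 0 members were higher and 11 lower at 0% fat, 0 and 2 of 18 matched members at 10% fat, and 0 and 8 of 18 at 60% fat. Of the 19, 10 were called in sham only, and the shares lower over all regions were 23.5% at 0% fat and, with a match, 4.57% and 9.17% at 10 and 60% fat. The cardiac transcription factor list had 11 members (0.724% against 0.609% and 0.595%), among them 4 assigned to Hand2, a factor of the right ventricle and outflow tract. The 2 Hand2 members called in both had 45.3 and 42.5, and 35.8 and 42.7, and the other 2 were called in sham only. The TAC to sham ratios of the 4 ran from -0.74 to 0.17, with a median of -0.26. A member over an internal start of Rxrg, a retinoid X receptor, had 45.8 and 57.8.

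The lipid handling list had 7 members on 3 of 25 genes. They were 0.461% of the set, against 0.257% of distal regions and 0.329% of the other distal regions at the same signal limit. The fatty acid oxidation list had 2, both in Acsl1 (0.132% against 0.121% and 0.106%). The oxidative phosphorylation list had 2, both in Cox5a (0.132% against 0.0492% and 0.0213%). In Cd36, the fatty acid transporter, a member had 45.9 in sham and 27.5 after TAC at 0% fat, 34.4 and 28.2 at 10% fat, and 43.7 and 36.1 at 60% fat. In Acsl1, which activates long-chain fatty acids, the larger member had 62.1 and 48.1, then 63.1 and 47.0, then 60.0 and 36.2. The sham library was the higher at all diets at both, with Acsl1 ratios of -0.43 (-0.59 to -0.29), -0.44 (-0.58 to -0.31) and -0.84 (-1.01 to -0.71). The 2 members in Pdk4, a kinase that shuts off pyruvate oxidation, had 38.8 and 23.6 and 42.2 and 19.7, and both fell in 1 broad region of the other diets with 93.1 and 64.4 at 10% fat and 88.2 and 63.0 at 60% fat.

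Endothelial genes had 25 members on 11 of 25 genes, and 14 of them were called in sham only. They made up 1.64% of the set, against 0.666% of distal regions and 0.925% of the other distal regions at the same signal limit. With members given to the nearest RefSeq start instead, the endothelial list had 13 and the sarcomere list 23. Pecam1, an adhesion protein of endothelial junctions, had 46 and 37.4 at 0% fat. Aqp1, the water channel of capillaries, had 54.3 in sham and 20.4 after TAC at 0% fat, 33.1 and 25.2 at 10% fat, and 34.2 and 17.9 at 60% fat, with ratios of -1.44 (-1.80 to -1.18), -0.40 (-0.62 to -0.22) and -1.03 (-1.30 to -0.85). The list's median ratio was -0.70 at 0% fat, -0.08 at 10% and 0.05 at 60% fat. Its counts higher and lower were 0 and 15 of 25, 1 and 0 of 18, and 0 and 4 of 18, beside shares over all regions of 13.6% and 23.5%, and, with a match, 2.47% and 4.57%, and 6.04% and 9.17%. The mural list had 9 members, or 0.592% of the set. Its share was 0.204% of distal regions and 0.181% of the other distal regions at the same signal limit. The extracellular matrix list had 13 (0.855% against 0.541% and 0.850%), a share close to that of the other distal regions at the same signal limit. The fibroblast list had 5 (0.329% against 0.117% and 0.138%), all called in sham only. The macrophage list had 1 of 17 distal regions, in Pik3ap1, and the lymphocyte list 2 of 8, both in Lck. The glucose list had 4 of 65 distal regions, the load list 2 of 18 (both in Rcan1), the immediate early list 2 of 14 and the cell cycle list 1 of 17. The adipocyte, neuronal, liver and skeletal muscle lists had 0 members, of 28, 6, 3 and 3 distal regions.

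The circadian list had 5 members, or 0.329% of the set. Its share was 0.201% of distal regions and 0.266% of the other distal regions at the same signal limit. The glucocorticoid and fasting list had 8, or 0.526%, below its shares of 0.586% and 0.797% there. A region downstream of Per1 was on both lists. Per1, a clock repressor that glucocorticoids induce, had 47.1 in sham and 74.7 after TAC at 0% fat, 61.0 and 57.6 at 10% fat, and 47.6 and 59.5 at 60% fat. The ratios were 0.58 (0.34 to 0.84), -0.10 (-0.32 to 0.11) and 0.18 (-0.04 to 0.42). Zbtb16, a factor strongly induced by glucocorticoids, had a member of 3737 bp with 83.5 and 56.3 at 0% fat, 65.5 and 50.6 at 10% fat and 68.8 and 41.3 at 60% fat. Its ratios were -0.64 (-0.77 to -0.52), -0.39 (-0.51 to -0.29) and -0.86 (-0.99 to -0.75). Assigned genes need not be the nearest, and the start nearest to the Per1 region was that of Hes7, 9581 bp away.

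The members were also looked up in the 8 libraries at 10 and 60% fat, which the rule did not use. The sets already differed in calls at 0% fat. An H3K9Bu call there was present at 401 of 1520 members and at 7953 of 9409 other distal regions with H3K9ac of 20 or more. The call classes were set by H3K9ac calls at 0% fat. The shares below therefore partly restate how the sets were chosen. Of the members, 72.6% overlapped a region listed for H3K9ac at those diets and 52.8% a region listed for H3K9Bu. The shares were 86.8% and 84.4% for other distal regions at the same signal limit, and 66.9% and 68.5% for all regions. For the members called in both libraries they were 98.4% and 71.7%, for those called in TAC only 86.5% and 20.2%, and for those called in sham only 49.8% and 46%. A call in all 4 H3K9ac libraries and in none of the 4 H3K9Bu libraries was found for 255 members (16.8%). The share was 4.49% of other distal regions, 0.321% of the exchanged set, 6.30% of all regions and 9.63% of regions with a promoter. For the 350 members that met the limits in each surgery this share was 21.7%. The 1104 members matched to the H3K9ac table fell in 1032 of its regions, so members are not independent of each other.

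Where a member matched both tables, its signals were ranked as percentiles within each table, and the rank of H3K9ac minus that of H3K9Bu was taken. The median difference was 12.2 points over the members, 23.5 for those called in both, 39.4 for those called in TAC only and 28.8 for the 350. It was -27.4 for members called in sham only and -8.39 for other distal regions at the same signal limit. For all regions it was 4.64, and for regions with a promoter 10.1. H3K9ac held the higher rank in 77.4% of the members called in both and in 17.9% of those called in sham only. It did so in 60.0% of all regions and in 73.6% of regions with a promoter, where both tables were matched. The TAC-only value rests on the 35 of 178 members that matched both tables. Of the sham-only members, 9.96% had calls in all 4 H3K9ac and no H3K9Bu library, against 4.49% of other distal regions, 27.8% overlapped the H3K9ac table only, against 11.3%, and 24.0% the H3K9Bu table only, against 8.84%.

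The members called in sham only followed single libraries at the other diets as well. They overlapped an H3K9ac call in 44.2% of cases in the sham library at 60% fat and in 22.3 to 25.4% of cases in the other 3 H3K9ac libraries. For H3K9Bu the shares were 39.6% in sham and 24.9% after TAC at 60% fat, 20.8% after TAC and 7.47% in sham at 10% fat. The members called in both overlapped H3K9ac calls in 91.7 to 94.6% of cases in each of the 4 libraries. Of the acetylation-only members, Nfe2l1, a stress-response factor of the proteasome, had 33.2 and 33.8 at 0% fat. This member of 496 bp lay in a region from 96823495 to 96831133 on chromosome 11. That region had 71.9, 65.3, 70.8 and 66.0 in the sham and TAC libraries at 10 and then 60% fat. A member of 466 bp beside Tnnt2, the cardiac troponin T gene, had 39.1 and 31.9. It lay in a region from 135836301 to 135839716 on chromosome 1 with 83.7, 75.2, 71.3 and 59.5. The values of both regions thus cover bases well outside the members, and whether those bases include a promoter was not checked. Both genes were picked out after their values were seen.

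**Figure D4:**
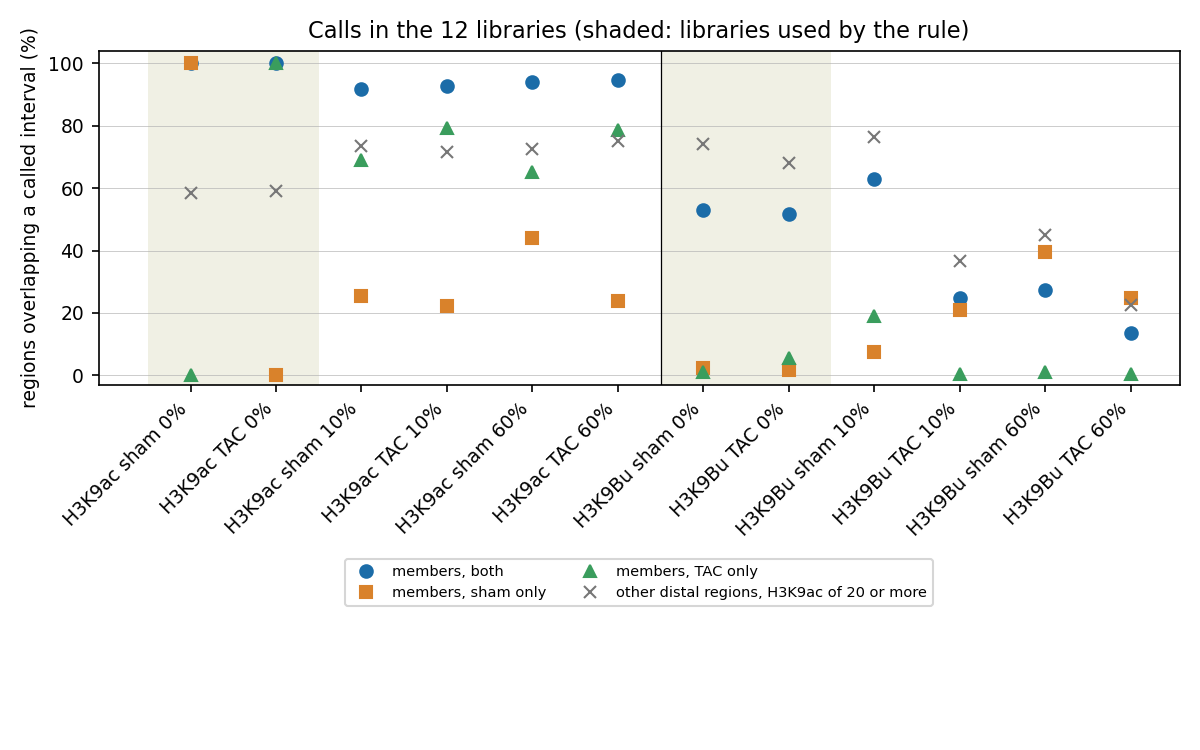
Percent of regions that overlap a called interval in each of the 12 libraries, for members by their H3K9ac call at 0% fat (coloured) and other distal regions with H3K9ac of 20 or more (crosses); shaded libraries were used by the rule. Members called in both stay above 91% in the H3K9ac libraries at 10 and 60% fat, while members called in sham only reach 44.2% in 1 of them and at most 25.4% in the other 3.

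For TAC against sham at 0% fat, the H3K9ac ratio had a median of -0.59 over all members, with 143 of 1520 past 1.5-fold higher and 764 lower, where all regions had 13.6% and 23.5%. Those counts follow from the call classes, since a member called in only 1 of the libraries is high in it. For the 579 called in both, the median was -0.06, with 37 higher and 81 lower (6.39% and 14.0%). For the 350, it was -0.10, with 8 and 33. When the rule was applied to the TAC libraries alone, which leaves the sham libraries out of the choice, the median over the 1606 regions found was 0.47, with 663 higher and 37 lower, so the direction at 0% fat depended on which libraries chose the members. H3K9Bu at the members had a median ratio of 0.07 at 0% fat, with 156 higher and 94 lower, where 9.73% and 11.3% of all regions were. By call class the H3K9Bu median was 0.03 for sham only (77 higher and 74 lower of 763) and 0.06 for both (33 and 18 of 579). For TAC only it was 0.29 (46 and 2 of 178, or 25.8% and 1.12%). Without centring the H3K9Bu counts over all members were 92 and 155 and the median -0.07, because that table's own median was -0.14.

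At 10% fat the H3K9ac ratio at 1104 matched members had a median of -0.01, with 39 higher and 57 lower (3.53% and 5.16%), beside 4.24% and 6.98% of all regions of the table and 2.47% and 4.57% of those matched from the 0% fat table in the same way. At 60% fat the median was -0.13, with 47 higher and 240 lower (4.26% and 21.7%), beside 8.18% and 13.2% of the table and 6.04% and 9.17% of the matched regions. The call classes at 0% fat were ordered alike at 60% fat, with medians of -0.56 for sham only (6 higher and 178 lower of 380), -0.06 for both (15 and 58 of 570) and 0.23 for TAC only (26 and 4 of 154). At 10% fat the medians were -0.12, -0.01 and 0.11. These 3 pairs of libraries share no library, but the order at 0% fat was fixed by the classes. Without centring, the median at 60% fat was 0.00 and the counts were 83 higher and 184 lower.

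**Figure D5:**
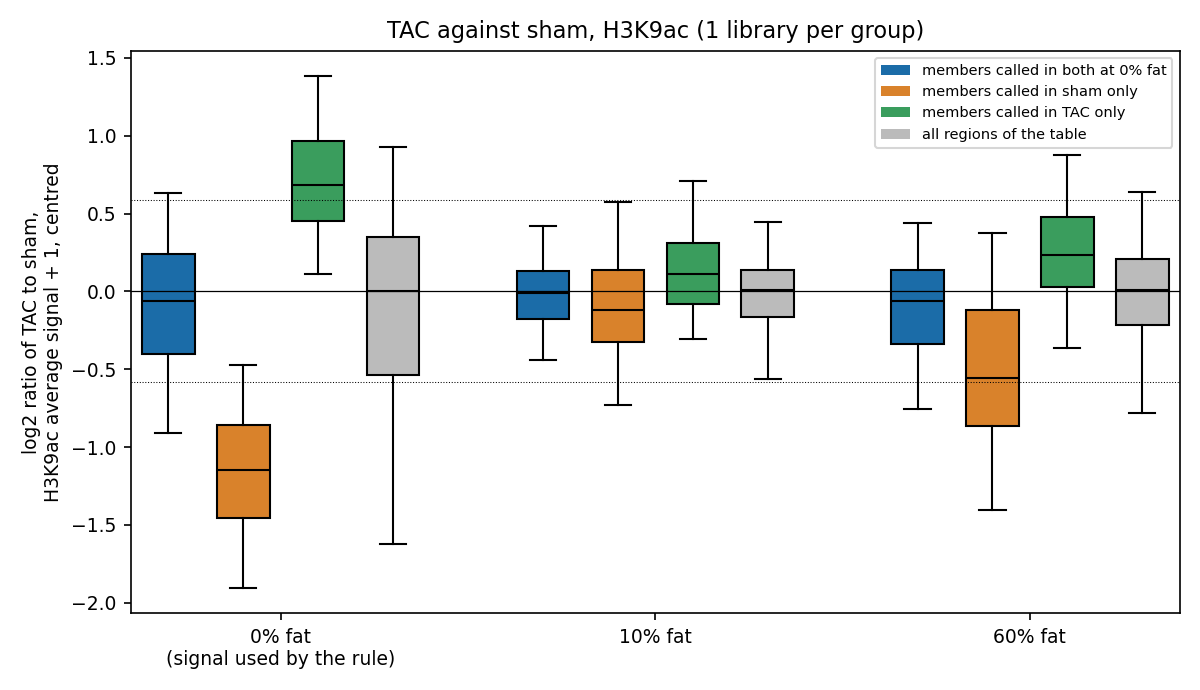
Centred log2 ratios of TAC to sham H3K9ac at each diet, for members by their call at 0% fat and for all regions of the table; boxes span the quartiles with the median, whiskers the 5th to 95th percentiles, and dotted lines mark 1.5-fold. At 0% fat the classes differ by construction; at 60% fat the sham-only box has its median at -0.56 and the TAC-only box at 0.23.

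The diets were compared within each surgery, 60 against 10% fat. In sham hearts H3K9ac had a median ratio of 0.10 at the members, with 155 higher and 8 lower (14.0% and 0.725%), where 8.1% and 4.71% of all regions and 4.13% and 2.92% of the matched regions were. Of the 155, 126 were called in sham only at 0% fat, and for the members called in both the counts were 23 and 2 of 570 with a median of 0.04. After TAC the median was -0.01, with 42 higher and 39 lower (3.80% and 3.53%), where 5.71% and 4.97% of all regions and 3.23% and 3.18% of the matched regions were. Counted in either direction, the share of all regions past 1.5-fold in H3K9ac was 37.1, 11.2 and 21.4% for TAC against sham at 0, 10 and 60% fat, and 12.8% and 10.7% for the diets in sham and after TAC. The sham comparison shares its 60% fat library with the TAC comparison at 60% fat, so a high value in that library raises the first and lowers the second.

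For H3K9Bu, the largest counts were in comparisons that use the sham library at 10% fat, which also had the many calls of its own. TAC against sham at 10% fat had a median of 0.38 at 802 matched members, with 367 higher and 66 lower (45.8% and 8.23%). Of all 58137 regions of the table, 28.7% and 11.3% were higher and lower, and of the 33758 matched from the 0% fat table, 11.8% and 13.7%. In sham, 60 against 10% fat had a median of 0.51, with 391 higher and 106 lower (48.8% and 13.2%), where 32.7% and 17.4% of the table and 14.5% and 22.5% of the matched regions were. In both comparisons, more of the table was higher than lower and more of the matched regions lower than higher. Both came from members called in sham only, with medians of 1.16 and 1.45, while for members called in both the medians were -0.14 and -0.25. Without centring the counts over all matched members were 147 higher and 332 lower (median -0.33) and 276 and 321 (median -0.12), so the direction depended on the scaling. In TAC against sham at 60% fat the median was 0.05, with 60 higher and 40 lower (7.48% and 4.99%) beside 8.3% and 6.69% of the table and 4.97% and 5.78% of the matched regions, and uncentred it was -0.30 with 7 and 173. After TAC, 60 against 10% fat had 90 higher and 67 lower (11.2% and 8.35%) beside 11% and 8.23% of the table and 4.27% and 9.52% of the matched regions, and uncentred 37 and 144. Counted in either direction, the share of all regions in H3K9Bu was 21.1, 40 and 15% for TAC against sham at 0, 10 and 60% fat, and 50.1% and 19.2% for the diets in sham and after TAC.

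Single members with the largest rise after TAC at 0% fat included genes of leukocytes. Pik3ap1, an adaptor of B cell and macrophage signalling, had 7.21 in sham and 37.0 after TAC at 0% fat, 12.0 and 16.4 at 10% fat, and 6.24 and 23.5 at 60% fat. The ratios were 2.13 (1.66 to 2.99), 0.40 (-0.23 to 1.08) and 1.63 (1.00 to 2.56). Lcp1, the leukocyte plastin, had 9.63 and 31.4 at 0% fat, 17.9 and 16.9 at 10% fat, and 11.9 and 21.4 at 60% fat. Rac2, a GTPase of blood cells named after its values were seen, had 12.1 and 36.2, then 18.6 and 24.6, then 21.5 and 26.4. All 3 were called in the TAC library only. Beside them, the promoter regions of the macrophage marker genes spanned 8.38 to 105 in the sham and 34.1 to 119 in the TAC H3K9ac library at 0% fat, and their part in these values was not tested.

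Ncoa7, a nuclear receptor coactivator gene, had 13.4 and 49.7 at 0% fat at a region whose middle lies 198 bp from a RefSeq start, then 18.2 and 23.2, then 19.7 and 30.5. Its ratios were 1.74 (1.13 to 2.57), 0.31 (-0.10 to 0.76) and 0.47 (0.11 to 0.90). The largest falls were at members called in sham only. Cyth1, an ARF exchange factor, had 35.8 and 4.89, Pim3, a serine/threonine kinase, 35.5 and 5.08 at one region and 50.2 and 7.71 at another, and Col4a1, a basement membrane collagen, 41.8 and 6.36. Of these 4, only Col4a1 had a match at the other diets, at 14.2 and 11.2 at 10% fat and 21.9 and 8.78 at 60% fat.

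Few members moved the same way past 1.5-fold at all 3 diets. Of the 1104 matched members, 4 were higher after TAC at each diet (0.362%) and 30 lower (2.72%), where 0.488% and 0.904% of 32968 matched regions were. Of the 30, 27 were called in sham only and so were low after TAC at 0% fat by their class. The members called in both gave 1 higher and 3 lower of 570. Of the 1606 regions chosen on the TAC libraries alone, 14 were higher and 3 lower. That choice favours a high TAC signal at 0% fat, so the direction of these counts is partly set by it.

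Of the 4 higher members, one lies downstream of Col1a1, the main collagen of scar, and of Sgca, at chr11:94955309-94956391. It had 12.3 in sham and 31.6 after TAC at 0% fat, 8 and 15.6 at 10% fat, and 9.31 and 29.0 at 60% fat. The TAC library was the higher at each diet, with ratios of 1.22 (0.84 to 1.73), 0.86 (0.36 to 1.5) and 1.41 (1.03 to 2.02). A region with no assigned gene, 36686 bp from the start of Sec61b, had 18.8 and 59.2, 28.1 and 43.7, and 26.3 and 48.3. The other 2 were assigned to LOC101055835 on chromosome 18. Beside the Col1a1 region, promoter regions of the fibroblast marker genes spanned 27.3 to 38.9 in sham and 39.4 to 51.9 after TAC at 0% fat, and their part was not tested.

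Among the 30 lower members, the Cacnb2 region above was 1 of the 3 called in both. Another was in Zbtb16 at chr9:48831513-48832994, with 50.6 and 20.8 at 0% fat, 33.7 and 20.2 at 10% fat, and 34.2 and 16.7 at 60% fat, and ratios of -1.32 (-1.65 to -1.06), -0.73 (-1.09 to -0.44) and -1.13 (-1.52 to -0.83). The third was in Ttll1, with ratios of -0.63, -0.61 and -0.75. Of those called in sham only, Egln1, an oxygen-sensing prolyl hydroxylase, had 39.0 and 15, 27.1 and 14.2, and 31.0 and 12.7. Axl, a receptor tyrosine kinase, had 33.1 and 13.2, 17.3 and 7.21, and 24.1 and 7.21. Htra3, a secreted serine protease, had 2 members on the list, the first with 25 and 15, 25.1 and 12.9, and 25.3 and 4.64.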

How the data were processed

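Chromatin from mouse heart nuclei was precipitated for H3K9ac or H3K9Bu and sequenced, 1 library per mark, surgery and diet. Per the submitters' processing notes, the authors used BWA, SICER and the mm10 build, with no version given. Per the file headers, the deposited tables give, for each merged region, an average and a peak signal per library, whether a called interval is present, and annotation counts; scaling between libraries is not given in the sources used here. The deposited log2 ratio of average signals and the deposited tag score (the larger estimated tag number of a pair of libraries) served only to check columns and the tag estimate of 1 per 224 bp of signal.

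Samples were grouped by title, and columns were tied to samples by their names. The rule was applied to the table at 0% fat, and members were matched to the other tables by an overlap of 1 bp or more, taking the longest overlap. Ratios were log2 of signal + 1, centred on the table median, and counts used a limit of 1.5-fold with no filter on low signal. Genes are those the authors assigned; of 1152 symbols, 1059 were in the RefSeq table and 1131 with synonyms. For 84.4% of 20448 regions with a single gene, the deposited distance and that to the RefSeq start agreed within 50 bp. Starts and windows came from RefSeq on GRCm38.p6, and chromosome 18 was left out of them. Named members were those highest in H3K9ac, in the ratio of marks and in the change after TAC, those that changed at 3 diets, those of the genes with most members, and the highest of each gene list; others are said to be chosen after their values were seen. The members and the lists were chosen with earlier results of these data known. Calculations used Python 3.11.15, pandas 2.3.3, SciPy 1.17.1 and statsmodels 0.14.6 and were tested on simulated data.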

Additional observations from a re-analysis of the deposited data

How the results depend on the processing

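No paired analysis was possible because each group had 1 library and the labels gave no replicate numbers, and for the same reason no replicate could be left out. Sequence at the region centres, in short and longer windows, was not run, because no genome was used here. Of 124 recomputed values, 60 stayed near the reported ones and 64 moved. The set held 3019 members at a looser ratio limit and 366 at a limit of 2, and 2477 at a signal limit of 15 and 444 at 30. It held 3525 regions on the sham libraries alone, and 579 and 350 members when restricted, after seeing the data, to those called in both H3K9ac libraries and to those passing in each surgery. The percent of members past 1.5-fold is given next, in the order H3K9ac TAC against sham at 0, 10 and 60% fat, then 60 against 10% fat in sham and TAC, then the same 5 for H3K9Bu. As reported it was 59.7, 8.70, 26.0, 14.8, 7.34, 16.4, 54.0, 12.5, 62.0 and 19.6%. In regions called in both libraries compared it was 20.4, 2.61, 12.3, 3.48, 2.27, 3.19, 26.3, 2.62, 35.0 and 5.42%, in the same order. For members called in both at 0% fat it was 20.4, 4.39, 12.8, 4.39, 4.04 and 8.81% for the first 6, and for H3K9Bu 28.0% for TAC at 10% fat and 37.6% for diet in sham. For members passing in each surgery it was 11.7% for H3K9ac at 0% fat, 13.9% at 60% fat, 5.64% and 3.86% for the diets, and for H3K9Bu 8.57% at 0% fat, 26.5% at 10% fat and 33.6% for diet in sham. On the TAC libraries alone it was 15.5% (H3K9ac, 60% fat), 6.03% (H3K9ac, diet in sham), 24.0% (H3K9Bu, 10% fat) and 36.7% (H3K9Bu, diet in sham). A pseudocount of 5 gave 4.89% and 3.53% for H3K9ac at 10% fat and for diet after TAC, and 8.62, 4.86 and 10.7% for H3K9Bu at 0 and 60% fat and diet after TAC. Leaving out low signals gave 4.33, 17.2, 9.43 and 3.74% for the last 4 H3K9ac comparisons and 10.5% for H3K9Bu at 0% fat. Uncentred, H3K9Bu at 60% fat gave 22.4%, and the split of higher and lower for H3K9ac diet after TAC was 58 and 27. A lowess centring split H3K9Bu into 322 higher and 118 lower at 10% fat and into 367 and 200 for diet in sham. Overlap with the H3K9ac table was 43.2% at a reciprocal 50%, 38.9% for regions at or above its median signal, and 98.4, 96.3 and 91.8% for members called in both, passing in each surgery and on TAC libraries alone. Overlap with the H3K9Bu table was 23.8, 30.1, 71.7 and 63.7% for the first 4 of these. At 3 diets the counts higher and lower were 2 and 16 with a pseudocount of 5, 1 and 3 for members called in both and for those passing in each surgery, and 14 and 3 on TAC libraries alone. For restricted sets and low-signal filters the change follows from the regions kept; otherwise the cause was not tested. Of 18 gene lists, 11 kept a count within 1.5 times when members were given to the nearest start. Estimated tags ran from 2543841 to 5194261 in the H3K9Bu libraries at 10 and 60% fat and from 7936243 to 8668333 in the H3K9ac libraries at those diets.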
